A study of Arabidopsis thaliana with 18 samples.

Results

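The genes described here code for heat shock proteins, heat shock transcription factors and proteins with a DNAJ description in Arabidopsis thaliana. They are the 56 genes, of 6740 in the deposited table, whose description names heat shock, an HSP20-like protein or DNAJ. Of these, 9 loci were also named one by one, and all 9 met the description rule too. By family they comprise 8 heat shock factors, 17 small heat shock proteins and 5 other proteins with an HSP20 domain. There are 1 HSP100, 2 HSP90 and 6 HSP70 genes. The remaining 17 have a description that contains DNAJ and are called J proteins here. Among them LQY1, EDA3 and AT3G47650 are described by a DnaJ/Hsp40 cysteine-rich domain, and AT2G24395 and AT5G43260 only as dnaJ-related. Whether each has a J domain was not checked. The family lists hold 5 further table genes that the description rule does not take, among them CLPB3 (AT5G15450) and HSP70T-2 (AT2G32120), and these were left out.

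Whole seedlings of the Col-0 ecotype were 9 days old at treatment. The pyl duodecuple line, called duodecuple below, carries mutations in 12 genes for PYR/PYL receptors of the stress hormone abscisic acid (ABA), and the wild type carries none of them. Both were kept on filter paper for 24 h with 100 µM ABA, with 300 mM mannitol as osmotic stress, or with 1/2 MS medium alone as control. Each of the 6 groups held 3 libraries, 18 in all.

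The table gives 1 value per group, taken as FPKM (fragments counted per transcript length and library size), so no value here has a replicate error and no difference was tested. "Rose" and "fell" mean that the authors called the gene changed against the control of its own genotype, by a rule the sources used here do not give. Of the 56 genes 53 reached 5 FPKM in at least 1 group. Every listed gene was called at least once, so shares of the table are not shares of the genome. Depth per library is unknown. In whole seedlings, fewer cells of a type and less RNA per cell cannot be told apart. Of the 12 mutated receptor genes 5 are listed. PYR1 (AT4G17870) stood at 181 FPKM in duodecuple controls and 173 FPKM in wild-type controls, and PYL12 (AT5G45870) at 1.57 and 0.407. Lower in duodecuple controls were PYL4 (AT2G38310), 112 against 183 FPKM, PYL5 (AT5G05440), 13.1 against 90.6, and RCAR3 (AT5G53160), 73.0 against 225. A level of this kind is no check of the mutations, since reads of a mutated transcript are counted too. All 4 leaf markers and 2 of 4 root markers checked are listed, and each was above 0 in all 6 groups.

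Heat shock factors are DNA-binding proteins that switch on chaperone genes through heat shock elements, repeats of the unit GAA and its complement TTC. Small heat shock proteins hold unfolding proteins in a refoldable state. HSP100 pulls aggregates apart, and HSP70 refolds proteins with J proteins as partners that deliver clients and stimulate its ATPase, while HSP90 completes the folding of many signalling proteins. In plants many of these genes are also active outside heat, in seed maturation and under drought, where ABA is the main hormonal signal.

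Under ABA, 17 of the 56 genes rose in the duodecuple line and 29 rose in the wild type. The shares over all 6740 genes were 2.49% in the duodecuple line and 17.6% in the wild type. None of the 56 fell in the duodecuple line and 3 fell in the wild type, against 2.79% and 27.3% of all genes listed. The median log2 ratio of the 56 was 0.49 in the duodecuple line and 1.12 in the wild type, where the medians of the table were -0.03 and -0.31. All 17 genes that rose in the duodecuple line also rose in the wild type, where they make up 58.6% of the 29. The same overlap was not counted over all genes listed, so it cannot be called particular to the 56.

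Mannitol raised 17 of the 56 genes in the duodecuple line and 33 in the wild type, and lowered 8 and 10. The table's shares were 23.3% higher and 27.2% lower in the duodecuple line, and 33.1% higher and 35.3% lower in the wild type. The median log2 ratio was 0.63 in the duodecuple line and 1.11 in the wild type, against -0.29 and -0.20 for the table. Of the genes that rose, 15 did so in both genotypes, which is 88.2% of the duodecuple list and 45.5% of the wild-type list. None of the 56 was called in opposite directions in the 2 genotypes under either treatment. These overlaps were not counted over all genes listed either. Comparisons of ABA and of mannitol share the control libraries of each genotype.

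**Figure D1:**
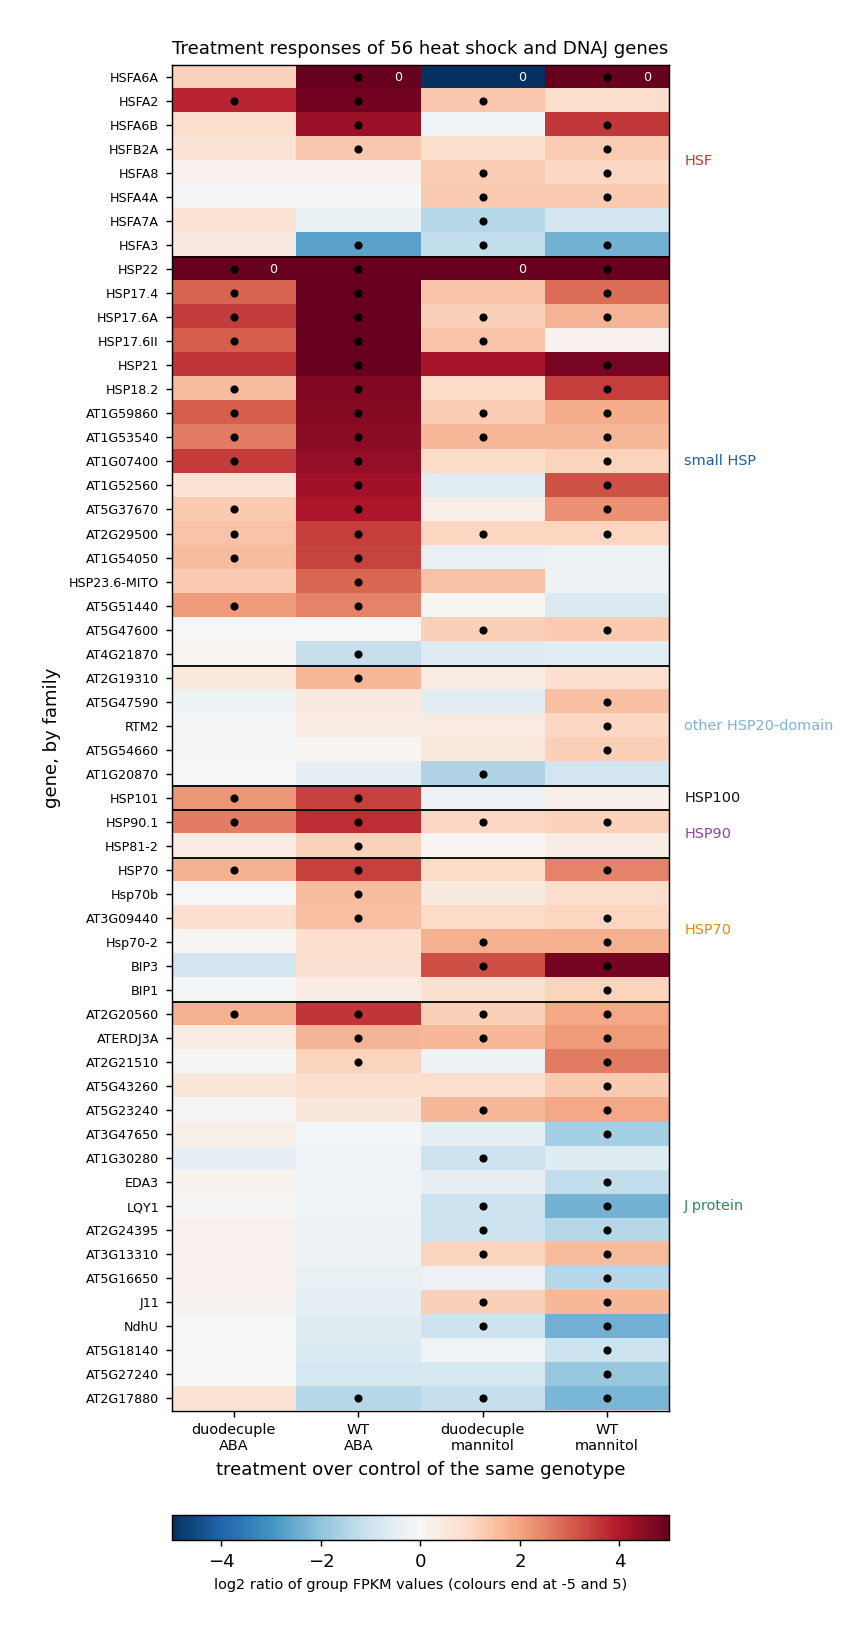
Log2 ratio of treated over control group values for the 56 genes (rows, by family) in 4 comparisons (columns). A black dot marks an authors' call, and a white 0 marks a ratio with 1 group listed at 0. Most of the 17 small heat shock proteins are red under ABA, with 12 called higher in the duodecuple line and 15 in the wild type, whereas the J proteins are coloured mainly in the mannitol columns.

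Gene structure and upstream sequence were read from the RefSeq annotation of assembly TAIR10.1, in which all 56 loci were found. Of the 17 genes that rose under ABA in both genotypes 10 have a single exon (58.8%), and all 10 belong to the 12 small heat shock protein genes raised in both. Of the 12 genes raised in the wild type and not called in the duodecuple line 2 have a single exon (16.7%), as do 20.0% of 27443 protein-coding genes. Heat shock element units were searched in the 250 bases before each annotated gene start, as GAANNTTC and TTCNNGAA, which read the same on both strands and may overlap each other. At least 1 unit was found in 7 of 17 small heat shock protein genes (41.2%), 3 of 8 heat shock factor genes, 3 of 17 J protein genes and none of the others. The share was 16.1% over all protein-coding genes and 16.6% over the 6560 listed genes with a window. Of the 17 genes raised by ABA in both genotypes 6 had a unit (35.3%). Of the 12 raised in the wild type and not called in the duodecuple line 3 had one (25%), and of the 27 genes not raised by ABA in the wild type 4 (14.8%). The 17 include the 12 small heat shock protein genes raised in both, of which 5 had a unit (41.7%), near the 41.2% of their whole family. At least 2 units were found in 4 of the 56 (7.14%), against 1.75% of all genes.

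Those 4 upstream stretches are shown with that of HSP22 (AT4G10250), the gene with the highest finite ABA ratio, in which no unit was found. All are from TAIR10.1, written 5′ to 3′ on the gene's strand and ending at the base before the gene start, with the heat shock element units in capitals. They were chosen after the counts were seen. HSP17.4 lies at chr3:16984868-16985117 on the minus strand, HSFA2 at chr2:11135374-11135623, HSFA7A at chr3:19264891-19265140, AT1G53540 at chr1:19980049-19980298 and HSP22 at chr4:6370088-6370337, all 4 on the plus strand.
HSP17.4: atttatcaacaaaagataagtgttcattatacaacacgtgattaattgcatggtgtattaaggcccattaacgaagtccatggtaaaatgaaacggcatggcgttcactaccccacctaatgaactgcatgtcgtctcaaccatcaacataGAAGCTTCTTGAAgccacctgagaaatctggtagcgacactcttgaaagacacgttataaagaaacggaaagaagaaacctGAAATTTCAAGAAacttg
HSFA2: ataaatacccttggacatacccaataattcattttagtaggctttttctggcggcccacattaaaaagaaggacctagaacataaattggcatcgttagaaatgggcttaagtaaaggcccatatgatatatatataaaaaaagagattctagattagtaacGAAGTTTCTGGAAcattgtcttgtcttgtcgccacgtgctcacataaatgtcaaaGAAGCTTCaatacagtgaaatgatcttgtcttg
HSFA7A: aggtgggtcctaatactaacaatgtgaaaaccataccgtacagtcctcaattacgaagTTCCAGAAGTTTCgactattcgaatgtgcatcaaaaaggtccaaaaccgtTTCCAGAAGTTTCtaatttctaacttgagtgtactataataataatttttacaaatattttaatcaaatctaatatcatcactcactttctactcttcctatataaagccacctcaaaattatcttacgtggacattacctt
AT1G53540: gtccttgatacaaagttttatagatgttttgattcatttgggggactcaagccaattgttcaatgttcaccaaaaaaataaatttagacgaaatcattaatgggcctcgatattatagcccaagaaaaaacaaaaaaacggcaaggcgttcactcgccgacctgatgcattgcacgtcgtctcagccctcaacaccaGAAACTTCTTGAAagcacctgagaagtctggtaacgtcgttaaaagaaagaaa
HSP22: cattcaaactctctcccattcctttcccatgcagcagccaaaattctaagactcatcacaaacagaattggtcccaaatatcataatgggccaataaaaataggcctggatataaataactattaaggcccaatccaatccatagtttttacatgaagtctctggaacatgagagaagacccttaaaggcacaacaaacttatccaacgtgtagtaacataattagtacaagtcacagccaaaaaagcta

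Within these stretches HSP17.4 and HSFA7A each hold 4 units in 2 overlapping pairs, HSFA2 holds 3 and AT1G53540 holds 2. HSP17.4, HSFA2 and AT1G53540 rose under ABA in both genotypes, whereas HSFA7A was not called under ABA in either. HSFA7A had 33.2 FPKM under ABA and 20.6 in control seedlings of the duodecuple line, against 17.2 and 21.6 FPKM in the wild type. A match of letters is a description of the window only, and the absence of one in HSP22 says only that these letters are not in it.

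**Figure D2:**
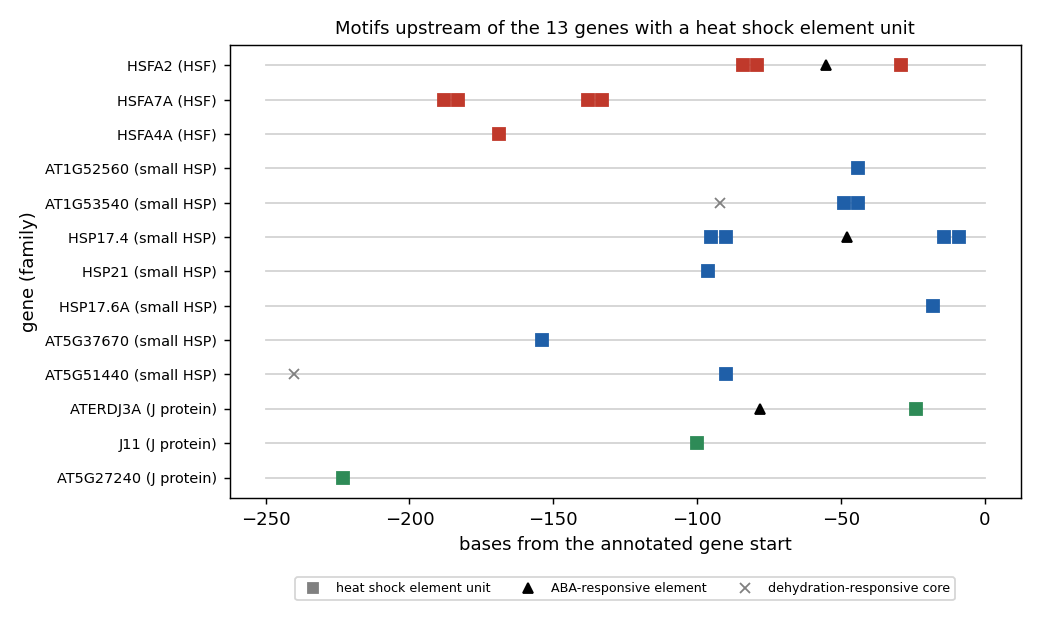
Positions of motifs in the 250 bases before the annotated start (horizontal, bases from the start) of the 13 genes that hold a heat shock element unit. Squares are heat shock element units coloured by family, triangles ABA-responsive elements and crosses dehydration-responsive cores; HSFA7A and HSP17.4 carry 4 units each, and HSFA2, HSP17.4 and ATERDJ3A also carry an ABA-responsive element.

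The ABA-responsive element was searched as ACGTGNC and the dehydration-responsive core as CCGAC, on both strands. The first was found in 8 of the 56 windows (14.3%), against 8.57% of all genes and 11.1% of the 6560. The second was found in 9 (16.1%), against 3285 of the 27443 and 790 of the 6560. Of the 29 genes raised by ABA in the wild type 4 held the ABA-responsive element (13.8%), and of the 27 others 4 did (14.8%). BIP3, raised by mannitol and not called under ABA, held 3 matches, of which 2 overlap.

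Among the transcription factors, ABA raised HSFA2 in both genotypes. HSFA2 (AT2G26150), which prolongs the heat response and whose upstream window holds 3 heat shock element units, had 26.7 FPKM under ABA, 4.77 under mannitol and 1.89 in control seedlings of the duodecuple line. The wild type had 83.4 FPKM under ABA, 5.33 under mannitol and 2.93 in control seedlings. It rose 14.1-fold under ABA in the duodecuple line and 28.5-fold in the wild type. No other heat shock factor rose under ABA in the duodecuple line. HSFA2 had the largest fold rise under ABA in the duodecuple line among called genes above 0 in both groups. Under mannitol it rose 2.52-fold in the duodecuple line and was 1.82-fold higher without a call in the wild type. In the authors' deposited table it is among 555 genes raised by mannitol in the duodecuple line alone, and its responses in the 2 genotypes were 1.38-fold apart, a difference that was not tested.

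HSFA6A and HSFA6B, class A factors known for their response to ABA and dehydration, rose under both treatments in the wild type and were not called in the duodecuple line. HSFA6A (AT5G43840) had 0.0725 FPKM under ABA, was listed at 0 under mannitol and had 0.0322 in control seedlings of the duodecuple line. The wild type had 16.3 FPKM under ABA and 13.9 under mannitol, with its control listed at 0. Its transcript was thus close to 0 in 4 of the 6 groups and high in the treated wild type. HSFA6B (AT3G22830) had 1.81 FPKM under ABA, 0.901 under mannitol and 0.997 in control seedlings of the duodecuple line, against 17.7, 10.4 and 0.891 FPKM in the wild type. HSFA6B rose in the wild type by factors of 19.9 with ABA and 11.6 with mannitol. Under mannitol the duodecuple line had 11.5-fold less HSFA6B than the wild type, and under ABA 9.77-fold less.

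HSFA3 went the other way. This factor, a target of DREB2A in the heat response, had 7.21 FPKM under ABA, 2.27 under mannitol and 5.33 in control seedlings of the duodecuple line. The wild type had 0.770 FPKM under ABA, 0.946 under mannitol and 4.90 in control seedlings. In the wild type HSFA3 (AT5G03720) fell under both treatments, by factors of 6.37 with ABA and 5.18 with mannitol. The duodecuple line showed a 2.34-fold fall with mannitol and no call with ABA, where HSFA3 stood 9.37-fold above the wild type. Of the 56 genes it had the largest excess of the duodecuple line over the wild type under ABA. DREB2A (AT5G05410) itself rose in all 4 comparisons, 2.47-fold under ABA in the duodecuple line and 2.89-fold in the wild type.

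The remaining 4 factors had smaller ratios. HSFA4A (AT4G18880), linked to oxidative stress, rose under mannitol to 23.0 FPKM in the duodecuple line, against 9.21 in its control, and to 26.7 FPKM in the wild type, against 10.9. HSFA8 (AT1G67970) also rose under mannitol in both genotypes, 2.40-fold in the duodecuple line and 2.05-fold in the wild type, and neither of these factors was called under ABA. Mannitol responses of HSFA4A were 1.02-fold apart between the genotypes and those of HSFA8 1.17-fold. HSFB2A (AT5G62020), of the class B factors that lack the activation motif of class A, had 17.4 FPKM under ABA and 20.1 under mannitol in the duodecuple line, 1.59-fold and 1.83-fold above control, without a call. In the wild type it rose to 31.2 FPKM with ABA and 29.6 with mannitol, against 12.3 in control. HSFA7A (AT3G51910) was called once, falling 2.66-fold under mannitol in the duodecuple line to 7.77 FPKM.

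The small heat shock proteins formed the family with the highest median ABA ratio in the wild type. Of 17 genes 12 rose under ABA in the duodecuple line, against 2.49% of all genes listed. In the wild type 15 rose and 1 fell, against 17.6% and 27.3%. Median log2 ratios were 2.12 in the duodecuple line and 4.41 in the wild type. Under ABA their levels ran from 0.344 to 173 FPKM with a median of 9.69 in the duodecuple line, and from 1.82 to 296 FPKM with a median of 84.4 in the wild type. Control medians were 2.51 FPKM in the duodecuple line and 3.21 FPKM in the wild type. Gene by gene the duodecuple control was below the wild-type control in 13 of 17, with a median log2 ratio of -1.31 where the median of all genes listed was -0.01. HSP23.6-MITO was 5.62-fold lower in duodecuple controls (0.222 against 1.24 FPKM) and AT1G53540 3.45-fold (0.718 against 2.48). HSP17.4 was 3.12-fold lower (1.28 against 3.98) and HSP17.6II 3.02-fold (0.964 against 2.91). The baseline of the treatment ratios of these genes thus differed between the genotypes, at values below 5 FPKM in both. It was also at least 2-fold lower in duodecuple controls in 3 genes of the family that reached 5 FPKM in wild-type controls. They were HSP17.6A (1.52 against 5.27 FPKM), AT1G07400 (2.76 against 7.59) and AT5G51440 (6.05 in the duodecuple line, 2.47-fold lower).

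**Figure D3:**
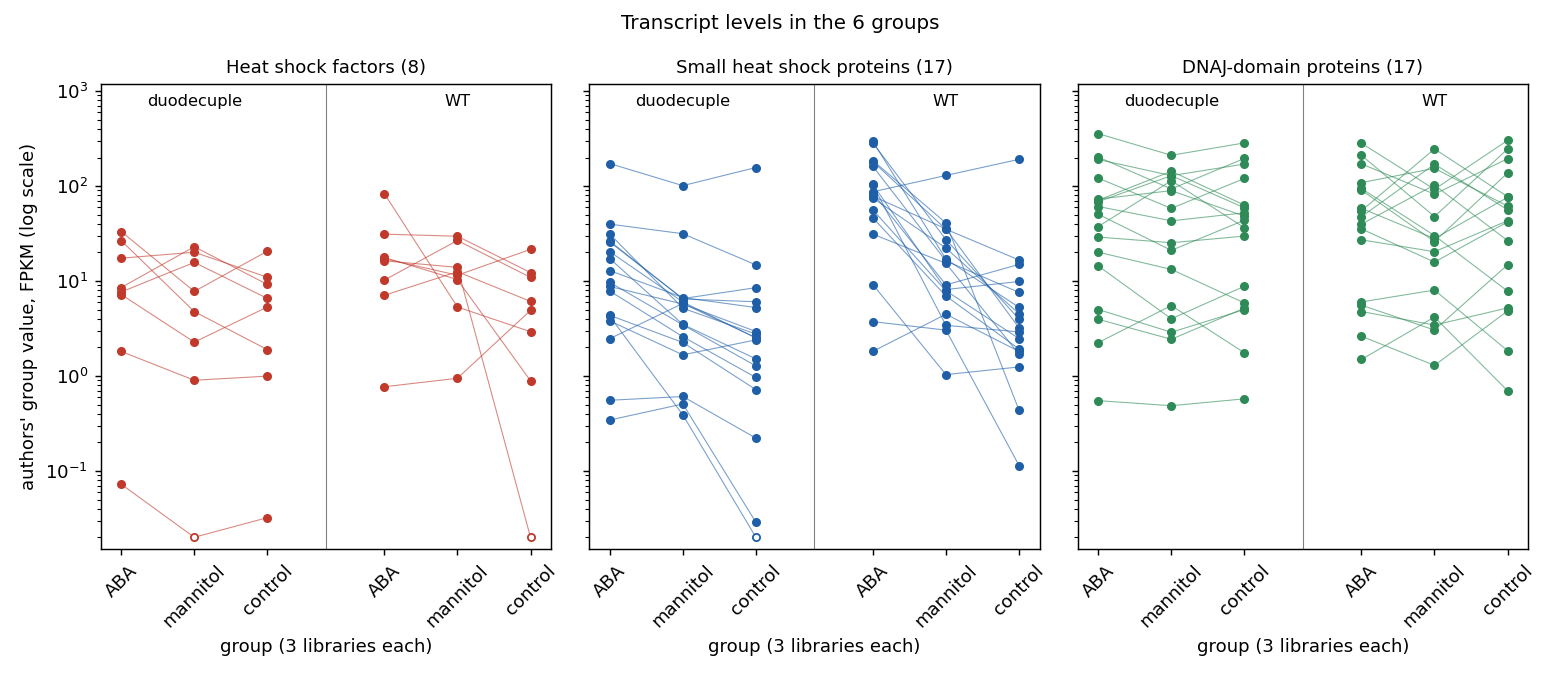
Authors' group values in FPKM (log axis) of the heat shock factors, small heat shock proteins and J proteins in the 6 groups; each point is 1 gene, lines join a gene's values within a genotype, and open points drawn at 0.02 are listed at 0. The small heat shock proteins have a median of 9.69 FPKM under ABA in the duodecuple line and 84.4 FPKM in the wild type.

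HSP22 had the highest finite ratio of the 56 genes under ABA. This small heat shock protein of the endoplasmic reticulum (AT4G10250, ATHSP22.0 in the reference table) had 4.26 FPKM under ABA and 0.390 under mannitol in the duodecuple line, where its control was listed at 0. The wild type had 186 FPKM under ABA, 40.9 under mannitol and 0.435 in control seedlings. In the wild type it rose by factors of 426 with ABA and 93.9 with mannitol. In the duodecuple line the ABA value was called higher and the mannitol value was not. The treated duodecuple line had 43.6-fold less HSP22 than the treated wild type under ABA and 105-fold less under mannitol.

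Cytosolic class I and class II proteins followed. HSP17.4 (AT3G46230, class I), with 4 heat shock element units upstream, had 9.69 FPKM under ABA, 3.46 under mannitol and 1.28 in control seedlings of the duodecuple line, against 285, 27.3 and 3.98 FPKM in the wild type. It rose 7.59-fold under ABA in the duodecuple line and 71.5-fold in the wild type, so the responses were 9.42-fold apart. HSP17.6A (AT5G12030, class II) had 17.3 FPKM under ABA, 3.49 under mannitol and 1.52 in control seedlings of the duodecuple line. In the wild type HSP17.6A had 296 FPKM under ABA and 5.27 in control seedlings, and it rose 3.23-fold under mannitol. Both genes rose under ABA in both genotypes, and their ABA levels in the duodecuple line stayed far below those of the wild type. HSP17.6II (AT5G12020), the neighbour of HSP17.6A on chromosome 5, had 7.86 FPKM under ABA, 2.59 under mannitol and 0.964 in control seedlings of the duodecuple line. In the wild type HSP17.6II had 103 FPKM under ABA, 3.42 under mannitol and 2.91 in control seedlings. HSP17.6II was thus high in the ABA-treated wild type. Under mannitol it was near its control in the wild type (1.17-fold, no call), and the authors called it higher in the duodecuple line (2.69-fold).

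AT1G07400, AT1G59860 and AT1G53540, all HSP20-like genes, rose under ABA in both genotypes. AT1G07400 had 31.3 FPKM under ABA in the duodecuple line, 11.3-fold above control, and 162 FPKM in the wild type, 21.3-fold above control. AT1G59860 had 20.4 FPKM under ABA in the duodecuple line and 46.3 FPKM in the wild type, rising 8.11-fold and 24.0-fold. It kept the smallest gap between the genotypes under ABA of the 12 small heat shock protein genes that rose in both, 2.27-fold. AT1G53540 rose 6.07-fold in the duodecuple line, to 4.36 FPKM, and 22.6-fold in the wild type, to 56.1 FPKM.

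HSP18.2 (AT5G59720, class I) and AT1G52560 differed most in their mannitol response between the genotypes among the small heat shock proteins above 0 in all groups. HSP18.2 had 5.73 FPKM under mannitol and 2.94 in control seedlings of the duodecuple line, without a call, and rose 11.1-fold in the wild type to 35.5 FPKM. AT1G52560 had 1.67 FPKM under mannitol and 2.40 in control seedlings of the duodecuple line, and rose 9.05-fold in the wild type, to 15.3 FPKM against 1.69 in control. Its responses in the 2 genotypes were 11.6-fold apart under ABA and still further apart under mannitol (a log2 difference of -3.70). In the duodecuple line it was called under neither treatment. AT2G29500 and AT5G37670 also rose under ABA in both genotypes, to 39.8 and 12.9 FPKM in the duodecuple line and to 181 and 74.9 FPKM in the wild type.

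HSP21 and HSP23.6-MITO, both organelle forms, rose under ABA in the wild type and had no ABA call in the duodecuple line. HSP21 (AT4G27670) of the chloroplast had 0.344 FPKM under ABA, 0.507 under mannitol and 0.0288 in control seedlings of the duodecuple line, against 3.74, 3.04 and 0.114 FPKM in the wild type. It rose under both treatments in the wild type and had no call in the duodecuple line, where every value was low. HSP23.6-MITO (AT4G25200) of mitochondria rose 7.38-fold under ABA in the wild type, to 9.19 FPKM, and had 0.555 FPKM under ABA in the duodecuple line without a call. Neither mannitol value of HSP23.6-MITO was called. AT4G21870 was the exception of the family. It had 173 FPKM under ABA, 101 under mannitol and 157 in control seedlings of the duodecuple line, and fell 2.20-fold under ABA in the wild type, with 87.1 FPKM against 191 in control. AT5G47600 rose under mannitol, 2.29-fold in the duodecuple line and 2.47-fold in the wild type, and was within 1.02-fold of control under ABA in both.

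Most small heat shock proteins had higher values under ABA than under mannitol, a count that was not made over all genes listed. In the duodecuple line 14 of 17 and in the wild type 15 of 17 had a higher value under ABA than under mannitol, with median log2 ratios of ABA over mannitol of 1.19 and 2.73. Mannitol raised 6 of 17 in the duodecuple line and 12 of 17 in the wild type, against 23.3% and 33.1% of all genes listed. HSP17.6II stood 30.2-fold higher under ABA than under mannitol in the wild type, HSP17.6A 17.4-fold, AT1G54050 12.8-fold and HSP22 4.54-fold. AT1G54050 and AT5G51440 rose under ABA in both genotypes and had no mannitol call in either.

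Among the 5 other HSP20-domain genes, AT2G19310 was the most abundant. It rose 3.16-fold under ABA in the wild type to 358 FPKM, and had 128 FPKM under ABA and 88.2 in control seedlings of the duodecuple line without a call. RTM2 (AT5G04890), which restricts the long-distance movement of a potyvirus, AT5G47590 and AT5G54660 were raised by mannitol in the wild type, 2.04-fold, 2.81-fold and 2.31-fold. None of the 3 was called in the duodecuple line. AT5G54660 had 34.0 FPKM under mannitol and 23.8 in control seedlings of the duodecuple line. AT1G20870 fell 2.83-fold under mannitol in the duodecuple line to 0.532 FPKM.

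The disaggregase HSP101 and the inducible HSP90.1 rose under ABA in both genotypes. HSP101 (AT1G74310) had 24.2 FPKM under ABA, 4.19 under mannitol and 5.19 in control seedlings of the duodecuple line, against 72.6, 8.15 and 6.87 FPKM in the wild type. It rose 4.67-fold under ABA in the duodecuple line and 10.6-fold in the wild type, and mannitol gave no call in either. HSP90.1 (AT5G52640) had 53.2 FPKM under ABA, 18.8 under mannitol and 9.07 in control seedlings of the duodecuple line, against 185, 31.3 and 14.3 FPKM in the wild type. Unlike HSP101 it was called higher in all 4 comparisons, by 5.87-fold with ABA and 2.08-fold with mannitol in the duodecuple line, and in the wild type by log2 3.70 under ABA and 1.14 under mannitol. HSP81-2 (AT5G56030), a cytosolic HSP90 made without stress, had 226 FPKM under ABA and 169 in control seedlings of the duodecuple line, and rose 2.22-fold in the wild type to 273 FPKM. Of its coding sequence, 24.1% of 50-base windows also occur in AT5G56010, so its reads can be split between both genes.

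By the calls in the wild type, 2 of the 6 HSP70 genes rose under both treatments, 1 under ABA alone and 3 under mannitol alone. Over all genes listed 17.6% rose there under ABA and 33.1% under mannitol, so the table as a whole also rose more often under mannitol. HSP70 (AT3G12580), a cytosolic form, had 69.8 FPKM under ABA, 39.2 under mannitol and 20.5 in control seedlings of the duodecuple line, against 398, 209 and 37.5 FPKM in the wild type. It rose 3.41-fold under ABA in the duodecuple line, and by factors of 10.6 with ABA and 5.57 with mannitol in the wild type. The forms of the endoplasmic reticulum rose under mannitol in the wild type and were not called under ABA. BIP3 (AT1G09080) had 2.06 FPKM under mannitol, 0.117 under ABA and 0.221 in control seedlings of the duodecuple line, against 5.21, 0.324 and 0.190 FPKM in the wild type. BIP3 rose 9.34-fold under mannitol in the duodecuple line and 27.4-fold in the wild type. BIP1 (AT5G28540) rose 2.18-fold under mannitol in the wild type to 209 FPKM and had 227 FPKM in the mannitol-treated duodecuple line without a call. BIP1 shares 32.0% of its 50-base coding windows with AT5G42020, so its level is uncertain. Hsp70-2 (AT5G02490) gave almost the same values in both genotypes under mannitol, 41.5 FPKM in the duodecuple line and 42.4 FPKM in the wild type, rising 3.41-fold and 3.43-fold. Hsp70b (AT1G16030) rose under ABA in the wild type (2.95-fold, to 10.5 FPKM), and AT3G09440 rose there to 205 FPKM under ABA and 154 under mannitol, against 73.2 in control. Neither was called in the duodecuple line.

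J proteins were called more often under mannitol than under ABA, as were the genes of the whole table. Of 17 genes 5 rose and 5 fell under mannitol in the duodecuple line, where 23.3% of all genes listed rose and 27.2% fell. The wild type had 7 rises and 9 falls, against 33.1% and 35.3%. Under ABA 1 rose in the duodecuple line, against 2.49%, and 3 rose and 1 fell in the wild type, against 17.6% and 27.3%. The duodecuple shares were thus near those of all genes. AT2G20560 was the gene that rose in all 4 comparisons, to 20.1 FPKM under ABA and 13.3 under mannitol against 5.87 in control in the duodecuple line, and to 94.5 and 30.1 against 7.83 FPKM in the wild type. Its responses were 3.52-fold apart between genotypes under ABA and 1.70-fold apart under mannitol. ATERDJ3A (AT3G08970), a J protein of the endoplasmic reticulum needed for pollen tubes in heat, rose under mannitol 3.15-fold in the duodecuple line and 4.35-fold in the wild type, to 5.52 and 8.03 FPKM. It also rose 3.26-fold under ABA in the wild type.

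J11 (AT4G36040), a small J protein of chloroplasts, had 143 FPKM under mannitol, 71.0 under ABA and 63.1 in control seedlings of the duodecuple line, against 246, 55.0 and 77.5 FPKM in the wild type. It rose 2.27-fold under mannitol in the duodecuple line and 3.18-fold in the wild type. AT3G13310 rose alongside it, 2.18-fold and 3.02-fold, as did AT5G23240, 3.12-fold and 3.85-fold. None of these 3 was called under ABA. AT5G23240 reached 114 FPKM under mannitol in the duodecuple line and 103 FPKM in the wild type. AT2G21510 rose 5.99-fold under mannitol in the wild type, to 4.18 FPKM, and stayed at 0.487 FPKM in the duodecuple line without a call.

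The J proteins with the largest falls under mannitol in the wild type include 2 known for work in the thylakoid. NdhU (AT5G21430), a subunit of the chloroplast NDH complex, had 58.3 FPKM under mannitol, 121 under ABA and 120.4 in control seedlings of the duodecuple line, against 26.0, 90.7 and 138 FPKM in the wild type. LQY1 (AT1G75690), which takes part in photosystem repair, had 93.3 FPKM under mannitol, 202 under ABA and 196 in control seedlings of the duodecuple line, against 47.8, 211 and 246 FPKM in the wild type. NdhU fell 2.07-fold in the duodecuple line and 5.28-fold in the wild type, and LQY1 fell 2.10-fold and 5.14-fold. AT3G47650, the J protein with the highest level, fell 3.28-fold in the wild type to 92.5 FPKM and had 211 FPKM under mannitol in the duodecuple line without a call. AT2G17880 fell 2.20-fold under mannitol in the duodecuple line and 4.87-fold in the wild type, and also fell 2.66-fold under ABA in the wild type. AT2G24395 fell 2.08-fold and 2.65-fold under mannitol in the duodecuple line and the wild type. EDA3 (AT2G34860), AT5G16650, AT5G18140 and AT5G27240 fell in the wild type by 2.12-fold to 3.74-fold without a call in the duodecuple line. AT1G30280 fell in the duodecuple line alone by call, 2.13-fold, where the wild type was 1.52-fold lower without a call, and AT5G43260 rose 2.50-fold in the wild type without a call in the duodecuple line. Leaf and root markers changed too. Of 4 leaf markers, CAB2 (AT1G29920), RBCS1A (AT1G67090), LHB1B1 (AT2G34430) and RBCS2B (AT5G38420), 2 fell under mannitol in the duodecuple line and all 4 in the wild type, with median log2 ratios of -1.01 and -2.57. CAB2 was 1.75-fold higher under mannitol in the duodecuple line, without a call. Under ABA CAB2 and LHB1B1 fell in both genotypes, and RBCS1A and RBCS2B were called in neither. NdhU, LQY1 and AT3G47650 also had no call under ABA. Of the root markers, CASP2 (AT3G11550) fell under mannitol in both genotypes and under ABA in the wild type (6.58-fold), and EXPA7 (AT1G12560) rose under mannitol in the wild type (3.41-fold). The part of leaf and root tissue in the responses of the 56 genes was not tested.

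Between the genotypes, more of these genes were lower than higher in the duodecuple line in control, ABA-treated and mannitol-treated seedlings. With a limit of 2-fold, and 5 FPKM as the least value of the higher group, none of the 56 genes was higher and 3 were lower in duodecuple control seedlings, against 3.4% and 2.55% of all genes listed. Without the minimum, which most small heat shock protein genes do not reach in control seedlings, 1 was higher and 9 were lower. Shares of all genes were not counted without the minimum, so these counts of low values have none to be set against. The 3 lower genes that met the minimum included HSP17.6A, with 1.52 FPKM in the duodecuple line and 5.27 in the wild type. The others were AT1G07400 with 2.76 and 7.59, and AT5G51440 with 6.05 in the duodecuple line, 2.47-fold below the wild type. Under ABA 2 were higher and 25 lower in the duodecuple line, where 14.5% of all genes were higher and 13.8% lower. Under mannitol 2 were higher and 14 lower, against 11.2% and 14.1%. The 2 higher ones were HSFA3 and AT2G17880 under ABA, and AT3G47650 and NdhU under mannitol.

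**Figure D4:**
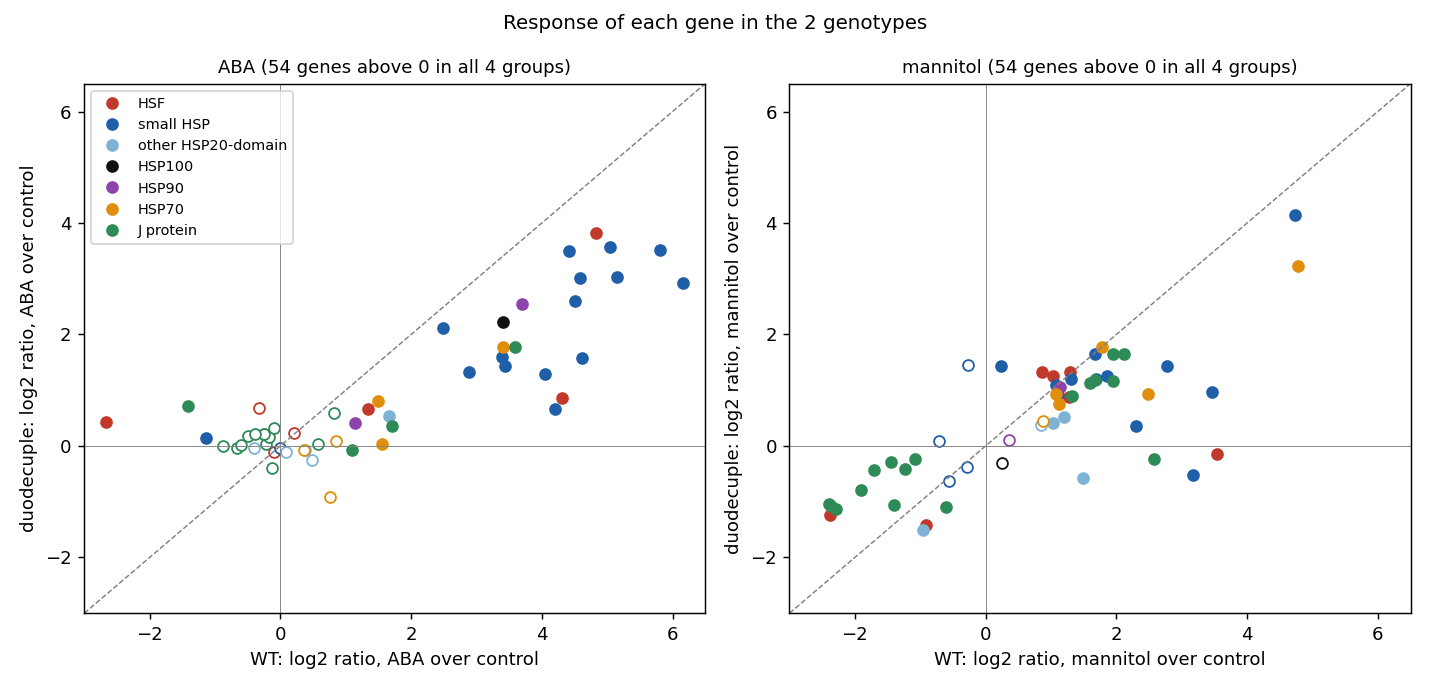
Log2 ratio of treated over control in the duodecuple line (vertical) against that in the wild type (horizontal) for ABA (left) and mannitol (right); each point is 1 of 54 genes above 0 in all 4 groups, filled where called in at least 1 genotype, and the dashed line marks equal responses. Under ABA the small heat shock proteins lie below the line, with medians of 2.12 and 4.41 over all 17 in the duodecuple line and the wild type, apart from AT4G21870. Under mannitol 8 of 41 genes compared lay at least 2-fold below the line and 6 at least 2-fold above it.

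The response difference, the log2 ratio of the duodecuple line minus that of the wild type, covers genes called in either genotype, above 0 in all 4 groups and at 5 FPKM or more in 1. Under ABA 28 of the 56 qualified, of which 3 were at least 2-fold higher and 20 at least 2-fold lower, against 41.9% and 33.2% of 2164 table genes. None of the 56 was called under ABA in the duodecuple line alone, so each of the 28 qualified through its wild-type call. Of the 56, 29 rose and 3 fell in the wild type, whereas 17.6% of all genes listed rose and 27.3% fell. The ABA counts of this difference thus cannot be told apart from that mix of wild-type rises and falls. Under mannitol 41 qualified, of which 6 were higher and 8 lower, against 18.2% and 19.1% of 4382 table genes. The lower genes under ABA were led by AT1G52560 at -3.54, HSFA6B at -3.45 and HSP17.4 at -3.24. The 3 higher ones were HSFA3 at 3.11, AT2G17880 at 2.12 and AT4G21870 at 1.28, the genes that fell in the wild type. Under mannitol AT1G52560 at -3.70, HSFA6B at -3.68 and HSP18.2 at -2.50 were lowest, and NdhU at 1.36, LQY1 at 1.29 and AT3G47650 at 1.28 were highest.

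Genes of the heat stress pathway outside the 56 were counted from a list of 20 regulators and co-chaperones, of which 9 are in the table. Under ABA 6 of the 9 rose in the duodecuple line, and 8 rose and 1 fell in the wild type, where 2.49% and 17.6% of all genes listed rose. The 1 that fell was DREB2C (AT2G40340), 2.50-fold to 0.899 FPKM. It had no ABA call in the duodecuple line. Under mannitol 3 rose in the duodecuple line and 4 in the wild type, close to the 23.3% and 33.1% of all genes listed. AT5G48570 rose 3.41-fold under ABA in the duodecuple line to 15.2 FPKM and 15.1-fold in the wild type to 85.5 FPKM. Hop3 (AT4G12400), which links HSP70 to HSP90, rose 2.71-fold and 9.94-fold under ABA, and the coactivator MBF1C (AT3G24500) rose 2.94-fold and 6.68-fold. BAG6 (AT2G46240) rose 2.91-fold and 6.58-fold. HSA32 (AT4G21320), which maintains acquired heat tolerance, and the galactinol synthase GolS1 (AT2G47180) rose under ABA in the wild type, by log2 3.34 and 2.69, and were not called with ABA in the duodecuple line. Of 8 genes for folding in the endoplasmic reticulum 3 are in the table, and under mannitol all 3 rose in the duodecuple line and 2 in the wild type, a list too short to set against those shares. None of the 3 was called under ABA in either genotype.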

How the data were processed

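RNA was sequenced from 18 libraries, 3 per group, and groups were taken from the sample titles. Per the submitters' processing notes, TopHat, Cufflinks, Cuffdiff and the TAIR10 build were used, and no versions are given there. The authors deposited 1 value per group, read as FPKM, the usual output of Cufflinks, although the header names no unit. The deposited log2 ratios equalled those of the group values within 4.68e-05, without a pseudocount. The yes or no calls were used as deposited. Without values per library no model was fitted and no test was run. In medians an infinite ratio counted as the most extreme value. Counts of genes 2-fold apart between the genotypes needed at least 5 FPKM in the higher group, except where stated. Genotype ratios of single genes, their medians and counts of direction alone had no minimum.

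Members, lists and motifs were chosen with earlier results of these data known. Named genes were the 9 listed loci, all heat shock factors, the 5 largest rises and falls per comparison, the 3 largest genotype ratios and response differences per direction, the 2 highest genes per family and 6 pathway genes. Other genes named were chosen after their values were seen. Symbols, gene models and upstream bases came from RefSeq on TAIR10.1, and no coordinates of the authors' build were used. Alternatives were 5 FPKM as minimum or none, 1 or 5 FPKM added, a 4-fold limit, and the 6 family lists. Counting and motif functions were tested on simulated data. Python 3.11.15, numpy 2.4.6, pandas 2.3.3 and matplotlib 3.10.9 were used.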

Additional observations from a re-analysis of the deposited data

How the results depend on the processing

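No paired analysis was possible because the table holds 1 value per group and none per library, and for the same reason no replicate could be left out. The depth and so the precision of every value is unknown. No median changed sign, and 45 of 86 recomputed values stayed within 1.5 times the count or within rounding of the median.

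Under ABA the wild-type falls were 1 with 5 FPKM added and 1 at 4-fold, against 3, and the duodecuple rises were 11 at 4-fold, against 17. Duodecuple rises under mannitol were 10 with 1 FPKM added, 4 with 5 FPKM added and 1 at 4-fold, against 17, and its falls were 4, 2 and 0, and 2 in the family lists, against 8. Wild-type rises under mannitol were 19 with 5 FPKM added and 12 at 4-fold, against 33, and its falls were 4 at 4-fold and 1 in the family lists, which hold no J proteins, against 10.

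Medians of log2 ratios with the 5 FPKM minimum, 1 FPKM added, 5 FPKM added and the family lists were 0.54, 0.36, 0.20 and 1.31 for duodecuple ABA and 1.49, 0.98, 0.73 and 3.41 for wild-type ABA. They were 0.52, 0.44, 0.20 and 0.95 for duodecuple mannitol and 1.13, 1.05, 0.77 and 1.20 for wild-type mannitol.

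Between the genotypes, without a minimum 1 control gene was higher and 9 were lower in the duodecuple line, and 4 were higher under mannitol. At 4-fold 0 were lower in control seedlings, 1 higher and 16 lower under ABA, and 0 higher and 9 lower under mannitol. Response differences at 4-fold were 8 lower under ABA, and 0 higher and 4 lower under mannitol.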
